A study of Mus musculus with 17 samples.

Results

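RNA-seq of round spermatids from juvenile mice, taken at 23 days post partum (dpp), was compared with RNA-seq of adult round spermatids. The comparison used 4 of the 17 libraries of the series: every library labelled juvenile round spermatid (1 library) and every adult round spermatid library (3 libraries, RS replicates 1 to 3). All libraries come from male C57BL/6JRj mice labelled wild type, whose germ cells were sorted into 5 stages of 3 libraries. Besides RS these are spermatocytes in leptotene/zygotene (LZ) or in pachytene/diplotene (PD), and elongating spermatids of an early (EES) or a late (LES) kind. Of the remaining libraries, PrmES came from elongating spermatids with a Prm1-EGFP reporter, whose genotype is nevertheless labelled wild type. The juvenile library and PrmES were sorted after staining with Hoechst alone, while the adult round spermatids were stained with SYTO 16 as well. In the gene table the columns of both libraries also have a prefix of their own. The age label reads 3 months for the juvenile library as for the adults, so the juvenile age rests on its title. Age, staining and name prefix coincide and cannot be told apart with these libraries. The labels do not say how many animals stand behind a library.

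Round spermatids are the haploid cells that follow meiosis. They start to build the acrosome and the flagellum, and in their later steps they transcribe the genes of transition proteins and protamines, the small basic proteins that take over from histones when the nucleus elongates and condenses; much of this mRNA is stored before it is translated. In a juvenile testis the first wave of germ cells moves through the stages together, so that early round spermatids are present before any elongating spermatid, whereas an adult testis holds all steps at once.

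The juvenile library held 159.2 M reads and the adult libraries 107.9 to 137.8 M. Genes of the gene table took 69.0% of the juvenile reads and 74.6% to 80.4% of the adult reads. Across 10283 genes with a mean of juvenile and adult level of at least 1 RPKM (reads per kilobase of exon, scaled to the library total), the juvenile library was closest to the adult round spermatids, with a Spearman correlation of 0.832 to 0.862 across genes, against 0.621 to 0.663 for PD, 0.453 to 0.619 for EES and 0.656 for PrmES; pairs of adult round spermatid libraries gave 0.974 to 0.986. Of the 7 round spermatid markers fixed for this check, which include H1f1, 2 lay above the adult range and 5 below it. Over all filtered genes, 28.8% lay above that range and 51.7% below it. The pachytene and diplotene markers summed to 981 RPKM in the juvenile library and to 945 to 1095 RPKM in the adults, and those of elongating spermatids to 303 RPKM against 717 to 1489 RPKM. Most of the pachytene and diplotene sum was Hspa2 (722 RPKM in the juvenile library). Hspa2 was no higher in PD (mean 644 RPKM) than in adult round spermatids (mean 688 RPKM). Of these 5 markers, 1 (H1f6) lay above the adult range and 1 (Ccna1) below it, so the sum hides opposite differences.

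With 1 juvenile library there is no replicate error on that side, so no test was made and the differences have no replicate check. A gene was called higher or lower where the juvenile log2 level lay at least 1 beyond the nearest of the 3 adult libraries. By this rule 494 of the 10283 genes (4.8%) were higher in the juvenile library and 1187 (11.5%) were lower. Of the higher genes 246 were under 1 RPKM in every adult library. Without genes of that kind 248 were higher, and with no filter 2867 of 24594 genes. By any amount, 28.8% of the genes lay above the adult range and 51.7% below it. Among the 9040 protein-coding genes, 3.14% were called higher and 10.6% were called lower by the rule of at least 1. The median gene differed by -0.23 on the log2 scale, measured from the mean of the adult log2 levels, and the adult libraries themselves spanned a median of 0.38. The balance of higher and lower calls depended on the scaling: 29.4% of the called genes were higher with the deposited values, 41.1% after scaling to reads in genes, 44.4% after centring on the median and 48.5% with trimmed mean of M values factors. These scalings moved the median of all genes by 0.17 to 0.25.

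**Figure D1:**
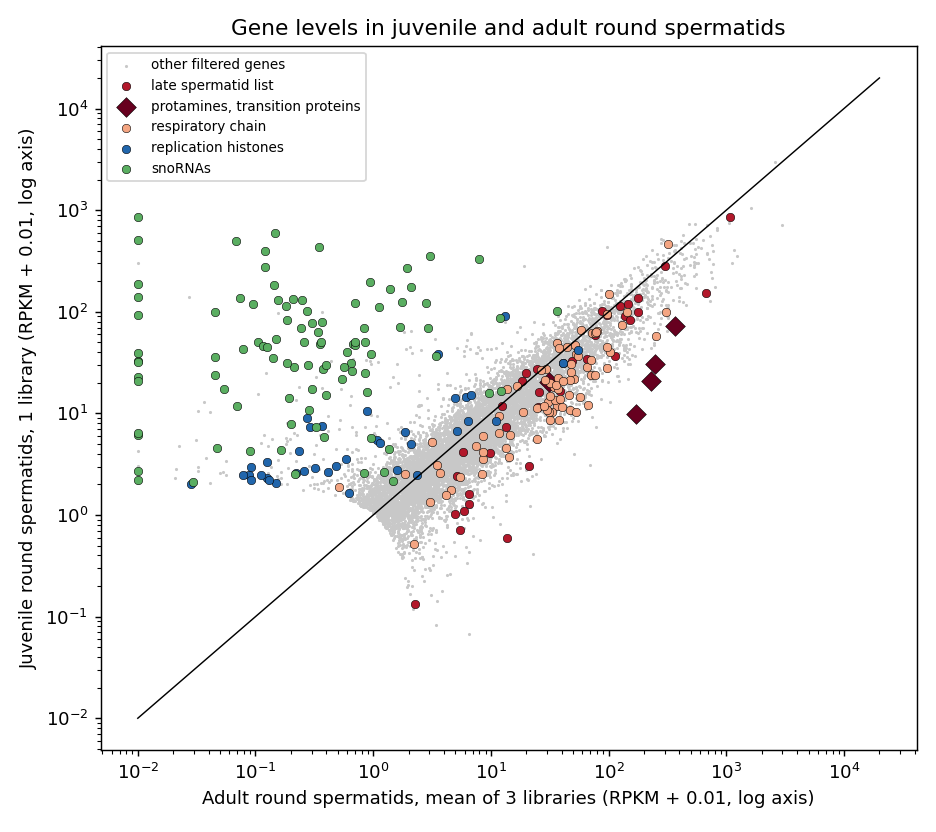
Each point is a gene past the filter, with its mean level in the 3 adult round spermatid libraries on the x axis and its level in the juvenile library on the y axis (RPKM + 0.01, both axes logarithmic; the line marks equal levels). Protamine and transition protein genes lie below the line, and snoRNAs and most replication histones lie above it.

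The genes of protamines and transition proteins were the lowest list in the juvenile library: 4 of 5 were called lower and none higher, with a median difference of -2.93, against 11.5% lower and a median of -0.23 over all filtered genes. Prm1, a protamine of the sperm nucleus, had 124, 152 and 234 RPKM in the adult libraries and 9.75 RPKM in the juvenile one, which rested on 886 reads (95% exact Poisson interval 9.12 to 10.4 RPKM, counting error only). The juvenile level was 17.4-fold lower than the adult mean of 170 ± 56.9 RPKM (SD, n = 3). It lay below all 3 adult libraries, as did 51.7% of all filtered genes. Prm2, the second protamine, stood at 137, 242 and 304 RPKM in the adults and at 20.6 RPKM in the juvenile library, 11.1-fold lower. Tnp1, which encodes transition protein 1, had 219, 352 and 530 RPKM against 72 RPKM, a 5.1-fold difference. For Tnp2, transition protein 2, the adult values of 165, 226 and 348 RPKM compared with 30.9 RPKM, 7.98-fold lower. Prm3, a protamine-like gene between Prm2 and Tnp2, lay below the adult range without being called, at 20.4 RPKM against 25.2, 33.3 and 35.6 RPKM. In bulk RNA, fewer cells of a type and less RNA per cell cannot be told apart. All 4 calls stood under each scaling and without each adult library, and 3 of them after centring by exon length. In EES the same genes reached 20320 RPKM (Prm2) to 27735 RPKM (Tnp1), so both the adult and the juvenile round spermatid levels were a small part of the elongating level. In the de novo table Prm1, Prm2 and Prm3 fell into 1 assembled locus, which differed by -2.94.

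The promoters of these genes are shown because their mRNAs were low together, and those of the linker histone genes H1f1 and H1f6, described further on, because they were high. Each line gives the 250 bases before the RefSeq start in GRCm38.p6, 5′ to 3′ on the gene's strand. Capitals mark the TATA box letters TATAAA, the CCAAT box, the full cyclic AMP response element TGACGTCA with its first part TGACG, the X box letters GTTGCC, and the looser frame TGANNTCA, all searched on both strands; the last also covers the full element and was added after the sequences had been seen.
Prm1 (chr16:10796824-10797073, minus strand): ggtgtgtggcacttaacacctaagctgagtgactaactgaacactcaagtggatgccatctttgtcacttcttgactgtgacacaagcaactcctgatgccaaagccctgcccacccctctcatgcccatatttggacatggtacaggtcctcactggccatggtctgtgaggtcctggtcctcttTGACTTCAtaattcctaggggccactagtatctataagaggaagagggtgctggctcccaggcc
Prm2 (chr16:10792106-10792355, minus strand): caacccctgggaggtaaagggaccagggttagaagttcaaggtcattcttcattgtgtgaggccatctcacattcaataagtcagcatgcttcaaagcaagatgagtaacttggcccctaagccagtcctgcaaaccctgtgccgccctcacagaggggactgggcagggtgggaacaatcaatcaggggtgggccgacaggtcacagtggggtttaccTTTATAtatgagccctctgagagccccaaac
Prm3 (chr16:10790915-10791164, minus strand): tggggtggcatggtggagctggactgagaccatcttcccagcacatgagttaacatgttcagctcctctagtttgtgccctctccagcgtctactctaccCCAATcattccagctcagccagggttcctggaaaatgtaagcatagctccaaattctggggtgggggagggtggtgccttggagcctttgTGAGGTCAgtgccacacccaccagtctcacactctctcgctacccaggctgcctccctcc
Tnp1 (chr1:73015900-73016149, minus strand): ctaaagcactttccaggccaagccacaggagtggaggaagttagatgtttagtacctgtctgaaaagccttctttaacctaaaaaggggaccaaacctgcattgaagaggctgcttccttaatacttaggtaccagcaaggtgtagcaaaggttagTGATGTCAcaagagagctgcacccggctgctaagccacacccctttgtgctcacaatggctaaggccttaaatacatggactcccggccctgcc
Tnp2 (chr16:10788656-10788905, minus strand): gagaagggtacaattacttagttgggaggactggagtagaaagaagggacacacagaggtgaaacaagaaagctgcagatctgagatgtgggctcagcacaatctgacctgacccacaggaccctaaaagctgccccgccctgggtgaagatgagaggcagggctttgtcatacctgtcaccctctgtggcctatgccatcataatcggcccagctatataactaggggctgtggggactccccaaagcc
H1f1 (chr13:23763418-23763667, plus strand): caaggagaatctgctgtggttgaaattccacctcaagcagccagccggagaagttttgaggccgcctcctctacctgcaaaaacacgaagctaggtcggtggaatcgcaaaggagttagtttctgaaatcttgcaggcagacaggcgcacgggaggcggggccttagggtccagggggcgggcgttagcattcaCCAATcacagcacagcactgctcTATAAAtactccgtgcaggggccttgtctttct
H1f6 (chr13:23695561-23695810, plus strand): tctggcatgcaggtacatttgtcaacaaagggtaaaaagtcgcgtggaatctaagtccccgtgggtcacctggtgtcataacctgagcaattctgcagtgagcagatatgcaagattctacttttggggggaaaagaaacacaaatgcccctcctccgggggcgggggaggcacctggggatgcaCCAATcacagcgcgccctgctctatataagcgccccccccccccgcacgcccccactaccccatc

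The frame TGANNTCA began 64 bases before the start of Prm1, 94 before that of Tnp1 and 60 before that of Prm3, and the letters TGACGTCA were in none of these windows. The windows of Prm2 and Tnp2 held no TGANNTCA. Both linker histone windows held CCAAT, 56 bases before the start of H1f1 and 65 before that of H1f6. Among filtered genes with a RefSeq window of 250 bases before to 50 after the start (8029 genes), 13.2% held TGANNTCA, against 11.5% of the 916 genes called lower and 14.7% of the 265 called higher. TGACGTCA was in 3.74% of all windows, 2.95% of those called lower and 3.02% of those called higher. TATAAA was in 7.37% of all windows, 9.17% of those called lower and 17.4% of those called higher. For CCAAT the shares were 40.2%, 39.3% and 49.1% in the same order. These matches describe letters in the windows only.

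Other genes known for late spermiogenesis were also lower, though not all of them. Of 39 listed genes past the filter, which include the protamines and transition proteins, 14 were called lower and none higher (median -0.85), where 11.5% of all filtered genes were lower and their median was -0.23. Tex37, a testis gene, fell from 9.92, 11.8 and 19.3 RPKM in the adults to 0.587 RPKM, the lowest value relative to the adults in the list. Car2, a carbonic anhydrase, had 1.4, 2.16 and 3.2 RPKM in the adults and 0.122 RPKM in the juvenile library. Spem1, needed for shedding of the sperm cytoplasm, stood at 14.7, 22.1 and 26.4 RPKM against 3.01 RPKM. Oaz3, the testis ornithine decarboxylase antizyme, stood at 83.9, 119 and 140 RPKM against 37.1 RPKM. Each of these genes had its juvenile value below all adult libraries, as did 51.7% of all filtered genes, and Spem1 and Oaz3 were picked after their values were seen. Each was above 200 RPKM in EES, from 209 RPKM (Car2) to 3450 RPKM (Oaz3).

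Of the sperm tail genes, Odf1, Akap4 and Smcp lay within the adult range. Odf1, an outer dense fibre protein, had 93.5, 139 and 140 RPKM in the adults and 115 RPKM in the juvenile library. Akap4, the main anchoring protein of the fibrous sheath, had 82.9, 75.6 and 105 RPKM against 102 RPKM. Smcp, a protein of the mitochondrial capsule, stood at 18.2, 28.9 and 25.9 RPKM against 27.3 RPKM. For these 3 genes, picked after their values were seen except for Odf1, the juvenile library could not be set apart from the adults. The fibrous sheath and dense fibre list gave 0 higher and 3 lower of 35, where 4.8% of all genes were higher and 11.5% lower. Its median of -0.14 turned positive under every scaling tried (0.04 to 0.17). Its lower members were Odf4, an outer dense fibre protein (191, 224 and 216 RPKM against 62 RPKM), Odf3l1 (27.6, 42.1 and 36.9 RPKM against 10.5 RPKM) and Gpx4, a peroxidase that becomes part of the mitochondrial capsule (211, 200 and 181 RPKM against 79.5 RPKM). Without the genes that were also called in PrmES against LES, the late spermiogenesis list kept 4 lower of 21, and the protamine list 2 of 3 (Tnp1 and Tnp2).

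**Figure D2:**
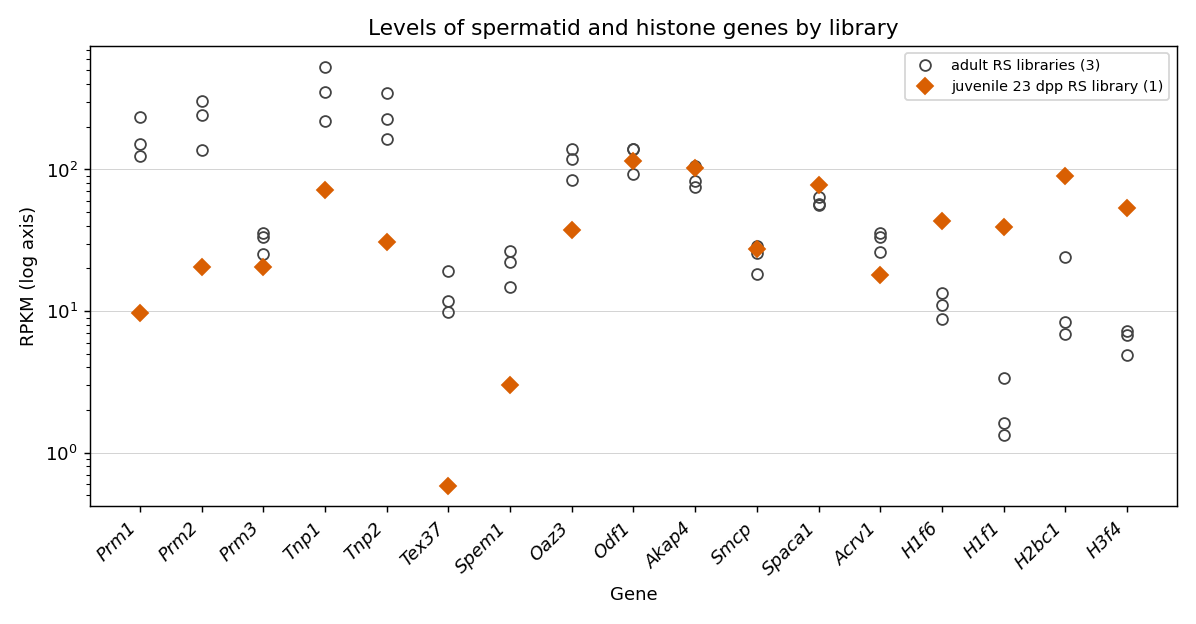
RPKM of 17 genes (logarithmic y axis) in the 3 adult round spermatid libraries (open circles) and the juvenile library (diamonds). The juvenile diamond lies under the adult circles from Prm1 to Oaz3, among them for Odf1, Akap4 and Smcp, for Acrv1 again under them, and above them for Spaca1, H1f6, H1f1, H2bc1 and H3f4.

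Acrosome genes held calls at a share near that of all genes: of 47 genes, 7 were called lower and none higher, where 11.5% of all genes were lower. Their median was -0.49, against -0.23 over all genes and -0.02 after centring by exon length. Tmem190, an acrosomal membrane protein, had 54.4, 69.3 and 65.4 RPKM in the adults and 15.2 RPKM in the juvenile library. Acrbp, the proacrosin-binding protein, had 146, 203 and 145 RPKM against 46.3 RPKM, and Fabp9, an abundant fatty acid binding protein of the spermatid, 945, 1295 and 1136 RPKM against 304 RPKM. Prss21, a sperm serine protease, stood at 74.9, 65 and 63 RPKM against 16.5 RPKM. The marker Acrv1, an acrosomal vesicle protein, had 33.4, 26.1 and 35.7 RPKM against 17.9 RPKM and stayed short of a call. Spaca1, which anchors the acrosome, was slightly above the adult range at 77.9 RPKM against 63.9, 56.4 and 57.2 RPKM. Izumo1, the sperm ligand for egg fusion, lay inside it at 17 RPKM against 13.7, 19.2 and 18 RPKM. The 7 calls became 4 after centring by exon length and 11 without RS replicate 1.

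The linker histone H1f1, given as a marker of these cells, was far above the adults. It had 1.63, 3.36 and 1.34 RPKM in the adult libraries and 39.5 RPKM in the juvenile one, 18.7-fold higher. H1f6, the testis linker histone H1t of spermatocytes, had 11.1, 13.5 and 8.79 RPKM against 43.5 RPKM, 3.91-fold higher. Both genes lay above all 3 adult libraries, as did 28.8% of all filtered genes. Of the 4 linker histone genes past the filter these 2 were called, where 4.8% of all genes were higher. H1f1 was highest in LZ (mean 1232 RPKM) and low in PD (7.09 RPKM), so it did not mark round spermatids in this series, whereas H1f6 peaked in PD (1084 RPKM). In the de novo table the locus holding H1f1 differed by 1.81 and that of H1f6 by 1.99.

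Core histone genes went the same way. The list of replication-type histones, small genes mostly in clusters on chromosome 13 that are transcribed during DNA replication, gave 28 higher and none lower of 38 past the filter (median 3.18), where 4.8% of all genes were higher. Many of the 38 passed only through the juvenile level. Over all 55 genes of the list, 44 were higher and none lower, where 2867 of all 24594 genes were higher. The list includes the testis copies H2ac1 and H2bc1. H2bc1, the testis H2B that precedes the transition proteins, had 8.4, 24 and 6.94 RPKM in the adults and 90.2 RPKM in the juvenile library. H2ac1, its H2A partner, had 3.3, 4.82 and 2.5 RPKM against 38.8 RPKM. H4c18, an H4 gene, stood at 0.388, 0.304 and 0.105 RPKM against 9 RPKM, and H2bc14, an H2B gene, at 0.265, 0.568 and 0.245 RPKM against 7.44 RPKM. H3f4, the testis H3 variant, is not in this list and had 6.79, 7.25 and 4.9 RPKM against 53.3 RPKM. In the de novo table its locus differed by only 0.35, at 7.49, 10 and 10.1 RPKM against 11.6 RPKM. The replication-type gene highest in the adult libraries, H2ac18, lay below the adult range without a call, at 66.8, 54.3 and 44.2 RPKM against 42 RPKM. Near-identical copies share reads, so single members are uncertain. With only the 17 members that reached 1 RPKM in an adult library, 7 were higher and none lower.

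Several of the raised histone genes were far higher in LZ, with means of 2852 RPKM for H2bc1, 1397 RPKM for H3f4, 736 RPKM for H2ac1 and 210 RPKM for H4c18. Others were not, such as H2ac10, an H2A gene, at 2.95 RPKM in LZ and 2.47 RPKM in the juvenile library. The 4 leptotene/zygotene markers together stood at 13.7 RPKM in the juvenile library, at 17 to 20.2 RPKM in the adults and at 112 RPKM in LZ; 3 of the 4 were above the adult range. One of them, Dmc1, the meiotic recombinase, had 0.764 RPKM against 0.232, 0.331 and 0.369 RPKM, and 61.6 RPKM in LZ. The part of LZ cells in the histone levels was not tested. In PrmES against LES, 12 of the 38 histone genes were higher and 1 lower. Some histones of late chromatin change went down instead. H2bl1 had 25.7, 22.2 and 36.2 RPKM against 5.97 RPKM. H2al2a, which acts with the transition proteins, had 14.5, 17.7 and 26.4 RPKM against 5.34 RPKM. Among other H2A variants, H2ab3 was also called lower, and H2al1a, H2al3 and H2ab1 lay below the adult range without a call. H2ab2, which did not pass the filter, differed by 3.50 in the other direction. H3f3a and H3f3c, copies of the replacement histone H3.3, were lower as well, at 83.3, 53.6 and 54.3 RPKM against 15.9 RPKM for H3f3a. H3f3b, another H3.3 gene, lay below the adult range without a call, at 42.4, 44.1 and 39 RPKM against 23.3 RPKM. In PrmES against LES, H2bl1, H3f3a and H3f3c were called lower too, and H2al2a was not called. In the list of testis and variant histones, 4 of 18 were higher and 5 lower, against 4.8% and 11.5% of all genes.

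Small nucleolar RNAs (snoRNAs), which guide the modification of ribosomal RNA and are mostly cut from introns of host genes, showed the widest difference. Of 115 snoRNA genes in the table, 98 passed the filter, 92 of them were higher and none lower (median 7.66), where 4.8% of all genes were higher. Most of the 98 passed only through the juvenile level, which fixes their direction; of the 32 that reached 1 RPKM in an adult library, 26 were higher and none lower (median 5.69). This class was singled out from the small RNAs after its values had been seen. Together the 115 genes reached 193, 112 and 78.8 RPKM in the adults and 9317 RPKM in the juvenile library; 14 of the 98 had no read in any adult library. Snord82 had no adult read and 504 RPKM in the juvenile library, at least 1270-fold above the level of 3 reads in the adult library with the highest such floor. Snora61 had 141 RPKM, again with no adult read, at least 660-fold higher by the same floor. These sequences, from GENCODE M21, show short RNAs that were read in the juvenile library and not in the adult ones; capitals mark the C box TGATGA and the D box letters CTGA nearest the end in Snord82, and the ACA box of Snora61.
Snord82 (chr1:86356261-86356330, minus strand): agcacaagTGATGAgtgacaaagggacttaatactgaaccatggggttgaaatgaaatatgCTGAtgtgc
Snora61 (chr4:132310240-132310369, plus strand): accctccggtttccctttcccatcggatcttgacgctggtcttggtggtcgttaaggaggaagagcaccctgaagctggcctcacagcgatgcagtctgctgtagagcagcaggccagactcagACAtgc

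The spliceosomal RNAs Rnu11 and Rnu12 of the minor intron class, picked after their values were seen, were also higher: Rnu12 had 32.8, 16.1 and 8.49 RPKM in the adults and 282 RPKM in the juvenile library. Longer RNAs made by RNA polymerase III were not. Rmrp, the RNA of RNase MRP, lay inside the adult range at 452 RPKM against 655, 253 and 219 RPKM, and Rpph1, the RNA of RNase P, below it at 718 RPKM against 6272, 1291 and 1415 RPKM. Noncoding host transcripts were higher: Gas5 had 4.97, 7.06 and 5.75 RPKM against 36.8 RPKM, Snhg1 had 2.21, 1.4 and 1.14 RPKM against 30.3 RPKM, and Snhg12 had 0.378, 0.384 and 0.317 RPKM against 17.6 RPKM. Of 251 filtered genes that span a snoRNA gene, 7.97% were higher and 8.76% lower, against 3.06% and 11.7% of the other protein-coding and lncRNA genes. Nop56, a snoRNP protein gene of this kind, was higher in the gene table (0.283, 0.423 and 0.317 RPKM against 6.13 RPKM) but differed by -0.71 in the de novo table. Whether snoRNA reads entered the host counts was not tested. The snoRNAs were also high in the other library stained with Hoechst alone: 88 of the 98 were higher and 1 lower in PrmES against LES, and without the genes called there 6 of 9 remained higher.

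**Figure D3:**
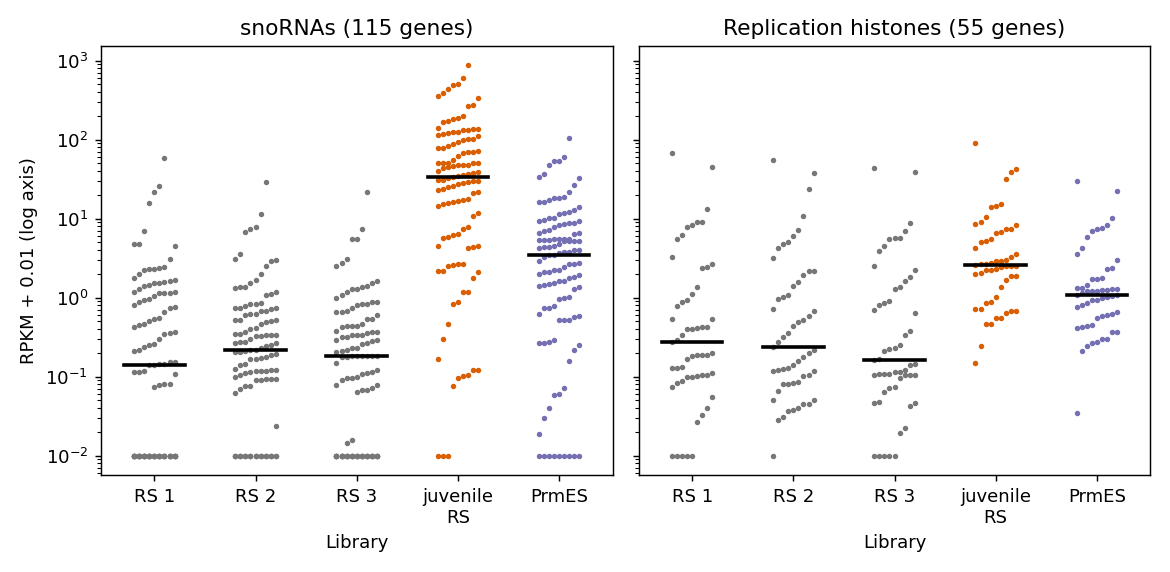
RPKM + 0.01 (logarithmic y axis) of all 115 snoRNA genes (left) and all 55 replication-type histone genes (right) in the 3 adult round spermatid libraries, the juvenile library and PrmES; each point is a gene and the bar is the median. The juvenile median bar lies above the adult bars in both panels, with the PrmES bar in between. With no filter, 103 of the 115 snoRNA genes and 44 of the 55 histone genes were called higher, against 2867 of all 24594 genes.

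Genes of the mitochondrial respiratory chain, whose complexes carry out oxidative phosphorylation, were lower as a group. Of 81 genes, 37 were lower and 1 higher (median -1.07), where 11.5% of all genes were lower. Ndufa7, a complex I subunit, had 66, 63.8 and 68.6 RPKM in the adults and 12.1 RPKM in the juvenile library, and Ndufc1, another, 65.5, 47.7 and 46 RPKM against 10.4 RPKM. Cox7a2, a subunit of cytochrome c oxidase, stood at 272, 241 and 246 RPKM against 57.9 RPKM, and Cox8c, its testis form of subunit 8, at 265, 388 and 265 RPKM against 98.5 RPKM. Ndufa4 was the member that was higher, at 0.51, 0.525 and 0.464 RPKM against 1.89 RPKM. In PrmES against LES, 4 of the 81 were higher and 5 lower. Glycolytic genes gave 3 lower and 1 higher of 25, near the 11.5% and 4.8% of all genes. Among them Ldha, lactate dehydrogenase A, had 282, 363 and 316 RPKM against 108 RPKM, and Ldhb had 0.313, 0.208 and 0.154 RPKM against 2.54 RPKM. Ndufa4 and Ldhb, the higher members of the 2 lists, were under 1 RPKM in every adult library and passed only through the juvenile level. Without genes of that kind, the respiratory chain list had 37 lower and 0 higher of 80. The glycolytic list then had 3 lower and 0 higher of 24.

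Of 82 ribosomal protein genes 30 were lower, 5 higher and 47 not called (median -0.74), where 11.5% of all genes were lower and 4.8% higher. Rpl29 had 76.5, 64.3 and 69.4 RPKM in the adults and 3.1 RPKM in the juvenile library, and Rpsa had 25.9, 22.8 and 24 RPKM against 2.52 RPKM. Rpl5, which hosts a snoRNA, went the other way, with 3.26, 3.54 and 3.27 RPKM against 53.7 RPKM. These genes have many processed copies in the genome, so the placing of their reads is uncertain. Their calls were largely shared with PrmES, where 34 were lower and 4 higher against LES, with Rpl29 at 3.38 RPKM and Rpsa at 2.67 RPKM; without the genes called there, 4 of 44 were lower and 2 higher.

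The difference varied with the exon length of the gene. Protein-coding genes under 750 bases had a median of -0.65 and 29.6% of them were lower, whereas those of 5000 bases and over had a median of -0.01 and 3.45% lower. PrmES minus LES ran from -0.13 to 0.43 over the same classes. After each length class was centred on its median, 473 protein-coding genes were higher and 501 lower, the respiratory chain list gave 15 lower and 2 higher, and the ribosomal protein list 19 lower and 7 higher of 81. What part length has in the lower levels of these short genes was not tested.

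**Figure D4:**
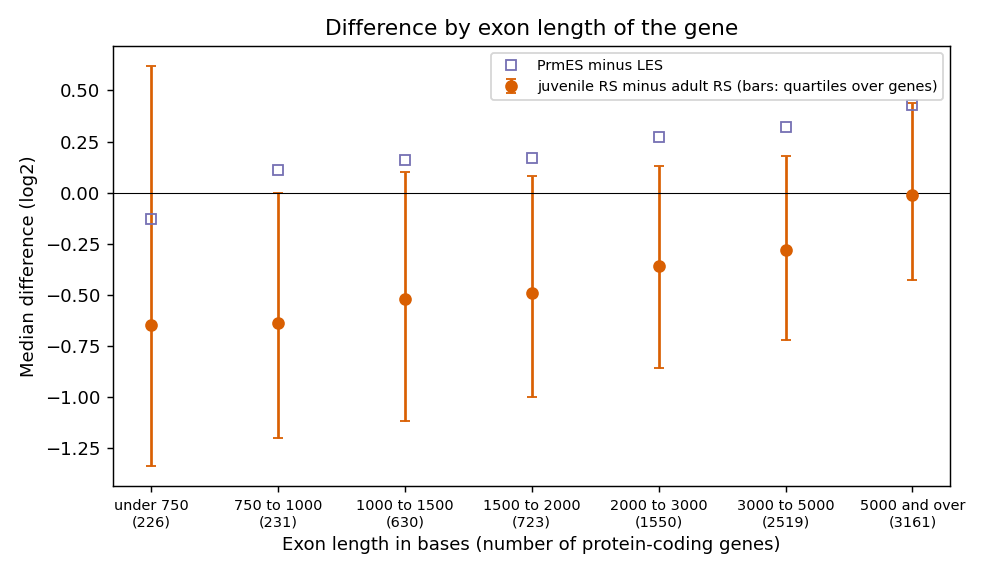
Median difference of protein-coding genes by exon length (x axis, bases, with the number of genes in each class) for the juvenile library minus the adult round spermatids (filled, bars are quartiles over genes) and for PrmES minus LES (open squares). The juvenile medians run from -0.65 in the shortest class to -0.01 in the longest.

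Lists of the machinery that assembles the flagellum and of earlier germ cell processes held few calls. Over all filtered genes, 4.8% were higher and 11.5% lower. Axoneme genes gave 2 lower and none higher of 42 (median 0.06), with Zmynd10, a dynein assembly factor, at 184, 240 and 204 RPKM against 84 RPKM. Ciliary transport and manchette genes gave 2 lower and none higher of 42 (median -0.02); under median centring these 2 calls were lost and 2 other members were higher. No proteasome gene was called among 41. Of 37 meiotic division genes, 1 was lower. Ccna1, the meiotic cyclin, had 316, 255 and 251 RPKM in the adults and 147 RPKM in the juvenile library, below the adult range and not called. Sycp3, of the synaptonemal complex, lay inside the range at 54.3 RPKM against 68.9, 39.7 and 42.7 RPKM, as did Piwil1, a piRNA-binding protein, at 14.3 RPKM against 12.6, 19 and 13 RPKM. In the meiotic prophase list 2 of 33 were higher and 1 lower, with Hfm1, a crossover helicase, at 1.48, 1 and 1.72 RPKM against 3.48 RPKM. The piRNA list gave 2 higher and none lower of 22: Mybl1, the factor that drives pachytene piRNA genes, had 16.3, 7.69 and 16.1 RPKM against 34.4 RPKM, and Asz1, a protein of the germ granule, had 6.69, 4.55 and 4.8 RPKM against 14.4 RPKM.

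**Figure D5:**
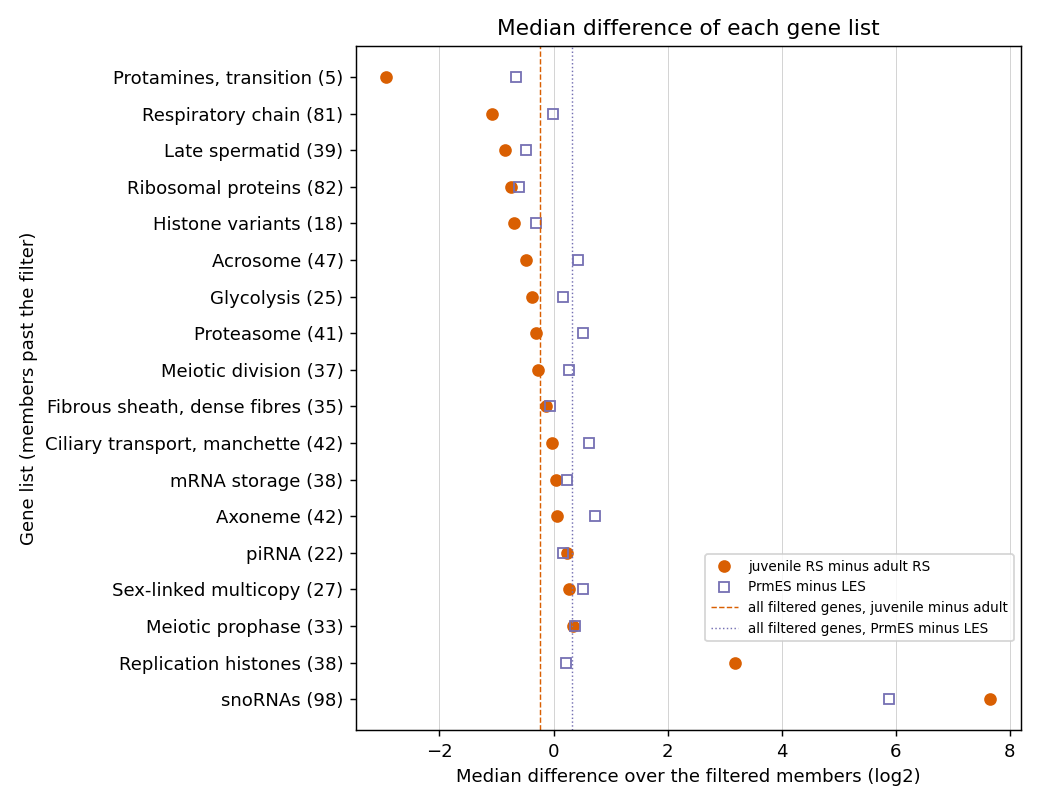
Median log2 difference (x axis) of each gene list over its members past the filter (number in brackets) for the juvenile library minus the adult round spermatids (filled) and for PrmES minus LES (open); dashed and dotted lines mark the medians of all filtered genes, -0.23 and 0.32. Of the 18 lists plotted, protamines (-2.93) and the respiratory chain (-1.07) lie lowest in the juvenile comparison and snoRNAs (7.66) and replication histones (3.18) highest; lists of somatic cells are not plotted.

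Placed along the order of stages, without using any round spermatid library, the lower calls were more frequent among genes that rise later. Of 1073 genes at least 4 (log2) higher in EES than in PD, 15.7% were lower and 5.22% higher in the juvenile library. Of 1323 genes at least 4 higher in PD than in EES, 5.74% were lower and 6.65% higher. Among protein-coding genes alone, the first class had 15.5% lower and 4.97% higher, and the second 5.28% lower and 2.11% higher. There the second class had more lower than higher calls. Over all genes, the 1988 with EES and PD within 1 of each other had 14.8% lower, so the share did not follow the stage order throughout. The medians of the first and second class were -0.23 and -0.08, a difference smaller than the spread over the genes of each class.

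X-linked genes stood apart from autosomal genes. Of 290 X-linked protein-coding genes, 54 (18.6%) were higher and 11 (3.79%) lower, with a median of 0.41. Of 8736 autosomal ones, 230 (2.63%) were higher and 948 (10.9%) lower, with a median of -0.24. Some of the 54 higher genes, such as Slx, Gm5169 and the Sertoli gene Tsx, were under 1 RPKM in every adult library. Such genes passed the filter only through the juvenile level, which fixes their direction, and their number among the 54 was not counted. Of the 54 higher genes, 39 were also higher in PrmES against LES. Among the 54 were 27 of the 67 X-linked genes with a clone-based name, and 26 of these 27 were higher in PrmES too. The list of sex-linked multicopy genes, whose near-identical copies share reads, gave 2 higher and 1 lower of 27 (median 0.27). Over all filtered genes, 4.8% were higher and 11.5% lower. Slx, a spermatid-expressed multicopy gene of the X chromosome, had 0.02, 0.0392 and 0.00816 RPKM in the adults, 10.5 RPKM in the juvenile library and 1.7 RPKM in PrmES. Gm5169, a related copy picked after its values were seen, had 0.406, 0.408 and 0.458 RPKM against 32.7 RPKM. Among the 223 X-linked genes with a gene name, 12.1% were higher and 4.93% lower. Their median in PrmES minus LES was 0.75, against 0.32 for autosomal protein-coding genes. Stag2, a cohesin subunit, had 3.23, 1.63 and 3.89 RPKM against 10.7 RPKM, Rlim, a ubiquitin ligase, 2.51, 2.37 and 2.61 RPKM against 6.12 RPKM, and Cul4b, of another ligase, 12.5, 7.33 and 12.2 RPKM against 27.7 RPKM; Stag2 and Rlim were picked after their values were seen. In PrmES against LES, Cul4b was also called higher, at a difference of 1.47, while Stag2 and Rlim each differed by 1.48 without a call. These genes were near 0 in PD, with 0.136 RPKM for Stag2 and 0.0896 RPKM for Rlim, the stage in which the X chromosome is silenced.

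Genes of somatic cells of the testis were low in all 4 libraries. With no filter, none of these lists had more lower than higher calls, though some of their sums did not exceed the adult range. The 28 Sertoli genes summed to 8.63, 9.13 and 8.2 RPKM in the adults, to 36.2 RPKM in the juvenile library and to 114 RPKM in PrmES. With no filter 20 of the 28 were higher and 2 lower, where 2867 of all 24594 genes were higher and 1774 lower. Of the 8 that passed the filter, the 7 higher ones were under 1 RPKM in every adult library and passed only through the juvenile level, and the other, Inha, was lower. Aard had 0.289, 0.151 and 0.202 RPKM against 6.05 RPKM, and Tsx had 0.137, 0.0447 and 0.121 RPKM against 5.13 RPKM. The defining Sertoli gene Sox9 was near 0 in all 4 libraries, at 0.112 RPKM in the juvenile library and 0.0134 RPKM at most in the adults. It was also low in PrmES (0.164 RPKM), where the Sertoli sum was larger. The 8 Sertoli markers of the label check, which include Sox9, summed to 9.77 RPKM against 1.45 to 1.7 RPKM in the adults. All 8 lay above the adult range, where 9186 of all 24594 genes did with no filter, and 4 of the 8 were under 1 RPKM in the juvenile library. Lyz2, of macrophages, had 0.176, 0.215 and 0.172 RPKM against 4.11 RPKM, and Hbb-bt, of red cells, 0.158, 0.196 and 0.107 RPKM against 2.29 RPKM. With no filter, macrophage genes gave 8 higher and none lower of 14, and red cell genes 3 higher of 5. The 13 Leydig genes summed to 8.13 RPKM against 6.83 to 8.08 RPKM (5 higher), the 11 myoid genes to 17.5 RPKM, inside the adult 13.8 to 23.7 RPKM (6 higher), and the 10 endothelial genes to 1.48 RPKM against 1.5 to 1.74 RPKM (1 higher, 1 lower). In the juvenile library these levels are small against Fabp9 (304 RPKM), but the Sertoli sum of 36.2 RPKM was above Prm1 (9.75 RPKM). The part of somatic RNA in other differences was not tested.

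Protein-coding genes outside these lists named by size of the difference were of both kinds. Aldh1a1, a retinaldehyde dehydrogenase, had 0.148, 0.12 and 0.0838 RPKM in the adults and 4.74 RPKM in the juvenile library, and Gsta4, a glutathione transferase, 0.285, 0.086 and 0.149 RPKM against 5.68 RPKM. PrmES had 4.95 RPKM of Aldh1a1 and 18.9 RPKM of Gsta4. Eif4a3l1, a copy related to a helicase gene, stood at 0.206, 0.157 and 0.168 RPKM against 8.01 RPKM. Lower genes were led by Cyp2t4, a cytochrome P450 gene, with 6.46, 7.42 and 5.57 RPKM against 0.0571 RPKM (15 reads) and 0.00812 RPKM in PrmES. Nudt16l2 had 4.85, 6.46 and 8.42 RPKM against 0.425 RPKM, and Cstl1, a cystatin-like gene, 4.24, 4.97 and 9.24 RPKM against 0.47 RPKM. Tsacc, a co-chaperone of testis kinases, had 98.5, 103 and 103 RPKM against 12.8 RPKM. Gm20594, which RefSeq lists with the synonym Mtrnr2l, had no adult read and 305 RPKM in the juvenile library and 298 RPKM in PrmES; it was picked after its values were seen.

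Calls in the juvenile library recurred in PrmES, which shares its staining and name prefix, although the 2 comparisons share no library. Against LES, 1007 (9.79%) of the 10283 genes were higher and 580 (5.64%) lower in PrmES. Of the genes higher in the juvenile library 63.4% were also higher in PrmES (313 genes, 31.1% of the PrmES calls), and of those lower 29.8% were also lower (354 genes, 61% of the PrmES calls). Calls in opposite directions were 1 and 21. Among protein-coding genes 49.6% of the higher and 29.8% of the lower calls recurred. Without every gene called in PrmES, 180 genes were higher and 812 lower in the juvenile library. Staining, name prefix and the state of the cells cannot be told apart in these shared calls. The genes H1f1, H1f6, H2bc1 and H3f4 and most respiratory chain genes were not called in PrmES.

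Of 13965 filtered de novo genes, 464 (3.32%) were higher and 2262 (16.2%) lower. Of the protein-coding genes called higher, 237 had an overlapping de novo gene, which was called higher in 67.1% and lower in 12 cases; of those called lower, 927 had one, called lower in 82.7% and higher in 1 case. Among 2358 filtered loci where no annotated gene lies on the same strand, 116 (4.92%) were higher and 352 (14.9%) lower. The locus MSTRG.20501 (chr6:47777352-47780488, plus strand) had 1.75, 2.61 and 1.65 RPKM in the adults and 120 RPKM in the juvenile library. The locus MSTRG.19710 (chr5:127954973-127955383, plus strand), opposite Tmem132d, had 18.8, 20.6 and 19.8 RPKM against a listed 0, with 1.73 RPKM in PrmES. The strand of the counting is not given in the sources used here, so reads of opposite genes cannot be told apart.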

How the data were processed

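RNA was measured in sorted mouse germ cells. The submitters' processing notes name Trim Galore, STAR and the builds GRCm38 and mm10, with no versions. The authors deposited log2 values for reference and de novo genes, log2 of 100 times RPKM plus 1, which puts the pseudocount at 0.01 RPKM. RPKM was recovered from them, and values came out as whole reads for 100% of genes (within 0.01 read), which gave library totals of 107.9 to 159.2 M. The deposited annotation holds coordinates (unit: other), assembled with StringTie 1.3.4d, per the file headers.

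Genes with a mean of juvenile and adult mean level of at least 1 RPKM were kept. A gene was called at a log2 difference of at least 1 beyond the nearest adult library; no test was made, since 1 library gives no replicate error. The call rule was tested on simulated data. Symbols came from RefSeq (24570 of 24594 IDs). The intervals and floors (3 reads) cover counting error only. Members, lists and rules were chosen with earlier results of these data known. Genes were named by a rule: label-check genes, up to 5 called members per list plus 1 in the other direction, the 15 largest protein-coding differences in each direction at 4 RPKM or more on the higher side, and 3 loci each way; a selection is printed, and some members are not reported here. Prm3, Akap4, Smcp, Spem1, Oaz3, Izumo1, Spaca1, Sox9, Dmc1, H2bc1, H3f4, H2ac18, Cox8c, Rmrp and Rpph1 were added after their values were seen. So were H3f3b, H2al1a, H2al3, H2ab1 and H2ab2. Alternatives changed scaling, pseudocount, filter, call rule, adult libraries and features. Analyses used Python 3.11.15 with pandas 2.3.3 and numpy 2.4.6.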

Additional observations from a re-analysis of the deposited data

How the results depend on the processing

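No paired analysis was possible because the juvenile side has 1 library, which shares only the number 1 with the adult ones. Leaving out 1 adult library at a time gave 549 to 573 genes higher and 1242 to 1556 lower, 519 to 581 and 2379 to 2754 de novo genes, and class medians by stage that kept their sign, as they also did without EES replicate 2.
Genes called higher numbered 863 with trimmed mean factors, 2867 with no filter, 254 at 4 RPKM, 1007 with the filter on the 15 stage libraries, 750 at 1 from the adult mean, 267 at 2 beyond the nearest library, 284 among protein-coding genes, 180 without genes called in PrmES and 248 without genes under 1 RPKM in all adults. Genes called lower numbered 790 at a pseudocount of 1 RPKM, 160 at 2 beyond the nearest library and 501 after centring by length. Genes above the adult range numbered 4666 with trimmed mean factors, 9186 with no filter and 1765 at 4 RPKM. De novo genes called higher numbered 733 scaled to reads in genes, 946 with median centring, 267 at a pseudocount of 1 RPKM, 1637 with no filter, 181 at 4 RPKM, 769 at 1 from the adult mean and 128 at 2 beyond; those lower numbered 1339 with median centring, then 1372, 4654, 1164 and 591 for the pseudocount, no filter, 4 RPKM and 2 beyond.
By stage order, median centring gave -0.03, 0.04 and 0.02 for genes higher in EES by at least 4, 2 and 1, -0.16 within 1, and 0.01, 0.03 and 0.12 for genes higher in PD by at least 1, 2 and 4; only the first and the within-1 class stayed negative. With no filter the classes at 2 and 1 higher in EES had -0.00 and 0.08, the class within 1 had 0.08, and those at 1 and 2 higher in PD had -0.08 and -0.09. LES in place of EES gave -0.17 for the class at 4 higher in PD. The cause of these changes was not tested; centring removes the median of all genes by construction. Genes shared with PrmES numbered 297 to 364 higher and 275 to 431 lower over the alternatives run, within 1.5 times of the main counts. The alternatives by gene class, by length, by PrmES calls or by adult level were chosen after seeing the data. Depth limits genes with few reads, such as Cyp2t4 with 15 in the juvenile library, and the spread between juvenile animals is unknown for every gene.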
